A study of Mus musculus with 2 samples.

Results

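The Hox cluster genes, which encode homeodomain transcription factors, were examined in a pair of mouse embryonic fibroblast cultures, one of them given fibroblast growth factor 2 (Fgf2), a secreted mitogen. Members were all genes named Hoxa, Hoxb, Hoxc or Hoxd followed by a number alone, whatever their values, and they came to 38 genes with 50 probes among 16593 named genes and 25697 probes on the array. The study compared 2 cultures, each labelled as male mouse embryonic fibroblasts, 1 with no agent and 1 with Fgf2 as the agent, and the series title ties them to a growth factor protocol for making induced pluripotent stem cells. Each culture was read on 1 Illumina bead array, so no value has a replicate, no test across samples was possible, and every difference below is a description of these 2 arrays. The labels give no strain, no embryonic age, no body region from which the cells came, and no dose or time of Fgf2. The design text calls both cultures free of Fgf2, against the titles and agent labels, and the direction of every difference follows those labels.

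Hox genes lie in 4 clusters on separate chromosomes, and genes of the same number in different clusters, called paralogs, descend from one ancestral gene. Along each cluster the low-numbered genes lie at the 3′ end and are used toward the head, and the high-numbered genes lie at the 5′ end and are used toward the tail and the tips of the limbs. Cells of connective tissue, fibroblasts included, are known to keep a Hox pattern that reflects the body site they came from, often called their positional identity. The comparison made here was whether the set of detected Hox genes, and their levels, differed between the 2 cultures.

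Detection was set at a detection p below 0.01 for a probe, the scanner software's measure of signal over negative controls, and a gene was taken as detected where any of its probes was. Of the 38 Hox genes, 18 were detected without Fgf2 and 18 with it, against 44.5% and 43.3% of all genes. On both arrays 17 Hox genes (44.7%) were detected, beside 41.6% of all genes, so the share was near the background. Another 19 Hox genes were detected on neither array. Detection was the same on both arrays for 36 of the 38 genes. The exceptions were Hoxa4, detected with Fgf2 alone, and Hoxb3, detected without Fgf2 alone. Among all genes 4.56% were detected on 1 array alone. The equal counts hold at this threshold, and at a detection p below 0.05 the counts were 21 without Fgf2 and 24 with it, and below 0.001 they were 13 and 16. The shares of all genes at those other thresholds are not given here, so these counts do not show a difference particular to Hox genes.

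**Figure D1:**
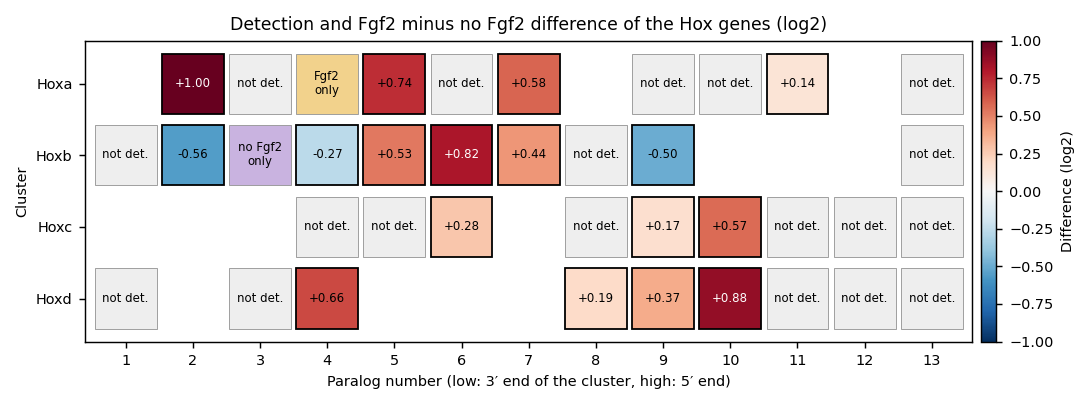
Each box is a Hox gene placed by cluster (rows) and paralog number (columns), and its number and colour give the Fgf2 minus no Fgf2 difference on the log2 scale where the gene was detected on both arrays. Grey boxes were detected on neither array, the yellow box (Hoxa4) with Fgf2 alone and the purple box (Hoxb3) without Fgf2 alone, and empty places hold no gene analysed here. Values are rounded to 2 decimals, and that of Hoxa2 is 0.998. At a detection p below 0.01 the detected genes run from paralog 2 to paralog 11, and no gene of paralog groups 12 and 13 was detected.

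Levels were taken on the log2 scale after background correction and quantile normalization. Each difference is the level with Fgf2 minus the level without it, from the brightest probe of each gene by mean level. All 17 Hox genes detected on both arrays were within 2-fold, and of all such genes 1.8% passed 2-fold on the higher side with Fgf2 and 2.52% on the lower side. The differences ran from -0.56 to 0.998, with a median of 0.44 against 0.03 for all 6902 genes detected on both arrays. With Fgf2 14 of the 17 (82.4%) were higher and 3 lower, and 53.9% of all such genes were higher. At least 1.5-fold higher were 5 Hox genes (29.4%), namely Hoxa2, Hoxd10, Hoxb6, Hoxa5 and Hoxd4, beside 6.75% of all genes. Without background correction this count was 1, Hoxa5 (5.88%), beside 3.16% of all genes. With median scaling it was 8 (47.1%), beside 8.24% of all genes. At least 1.5-fold lower were 0, beside 7.24% of all genes. Over all 38 genes with no detection filter the median was 0.25, with 25 higher and 13 lower. In RNA from a whole culture, fewer cells of a kind and less RNA per cell cannot be told apart.

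With no replicate arrays, the only measure of error is the spread between different probes of one gene, whose pooled SD was 0.22 on the log2 scale over 1749 genes. This covers measurement within the pair of arrays and says nothing of the spread between cultures. A difference of more than 2 of these SDs, or 0.44, was found for 11 of the 17 Hox genes (64.7%), 9 higher and 2 lower, beside 24.0% of all genes. Hoxb7 lay at the edge of that limit. The SD between probes depended on level, at 0.25 for genes of low, 0.22 of middle and 0.18 of high level. The pooled SD was used at every level, for dim Hox genes also.

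**Figure D2:**
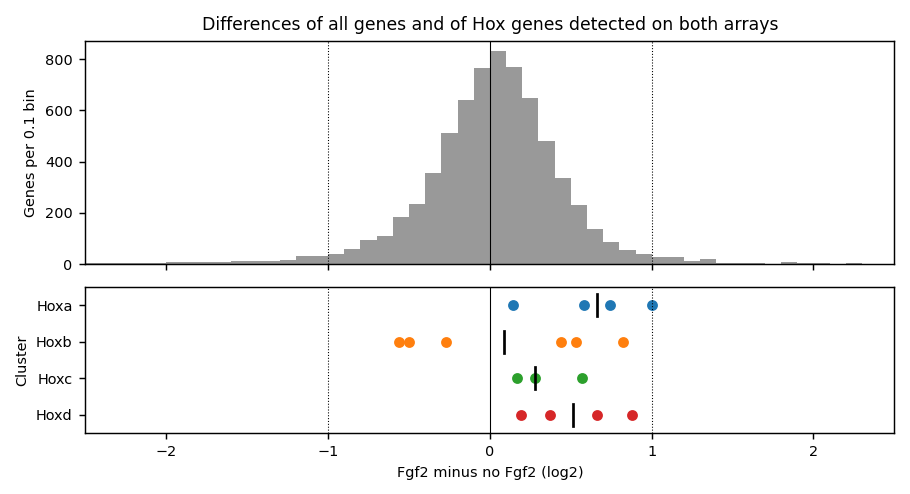
The upper panel counts all genes detected on both arrays by their Fgf2 minus no Fgf2 difference (log2, bins of 0.1), and the lower panel shows each of the 17 Hox genes by cluster, with a bar at the cluster median. Dotted lines mark 2-fold. The Hoxb genes lie on both sides of 0, while all detected Hoxa, Hoxc and Hoxd genes lie above it.

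RefSeq promoter sequences (build GRCm38.p6) were matched by symbol for 22 of the 38 genes, 9 of them detected on at least one array. The 250 bases before the start site are printed for 3 genes that were higher with Fgf2 and 1 that was lower. They were searched on both strands for TGATTNAT, a site bound by Pbx and Hox proteins together, TGACAG, the core bound by Meis proteins, and CCGGAAG, a core bound by ETS factors of the kind that act below FGF receptors. Capitals mark every match.
Hoxa2 (chr6:52164832-52165081, minus strand): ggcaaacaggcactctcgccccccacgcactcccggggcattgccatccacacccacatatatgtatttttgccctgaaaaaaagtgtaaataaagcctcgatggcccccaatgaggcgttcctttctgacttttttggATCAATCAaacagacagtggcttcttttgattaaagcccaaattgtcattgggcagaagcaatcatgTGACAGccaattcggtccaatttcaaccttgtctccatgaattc
Hoxa5 (chr6:52204588-52204837, minus strand): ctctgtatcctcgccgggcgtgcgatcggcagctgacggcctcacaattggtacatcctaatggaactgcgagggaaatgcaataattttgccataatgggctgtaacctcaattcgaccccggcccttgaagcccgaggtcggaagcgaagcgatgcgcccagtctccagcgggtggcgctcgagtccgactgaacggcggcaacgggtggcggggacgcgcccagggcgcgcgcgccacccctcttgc
Hoxd10 (chr2:74691641-74691890, plus strand): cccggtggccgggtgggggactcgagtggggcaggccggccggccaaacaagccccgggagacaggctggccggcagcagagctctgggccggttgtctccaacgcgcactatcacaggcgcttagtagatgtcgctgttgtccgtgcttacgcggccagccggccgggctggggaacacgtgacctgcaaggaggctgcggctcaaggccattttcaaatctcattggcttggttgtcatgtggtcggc
Hoxb4 (chr11:96318017-96318266, plus strand): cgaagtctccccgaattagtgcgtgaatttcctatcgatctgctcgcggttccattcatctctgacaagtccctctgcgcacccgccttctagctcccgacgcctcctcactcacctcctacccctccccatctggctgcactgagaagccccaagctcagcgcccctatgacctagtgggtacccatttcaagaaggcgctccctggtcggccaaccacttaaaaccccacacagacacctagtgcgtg
Hoxa2 held 1 match to TGATTNAT and 1 to TGACAG, which do not overlap, and these letters were not in the windows of Hoxa5, Hoxd10 and Hoxb4. Over the 22 Hox promoters TGATTNAT was in 1 (4.55%), TGACAG in 2 (9.09%, the other being that of Hoxa3) and CCGGAAG in 0. Over 27025 promoters of the same length, 1 per gene, the shares were 2.99%, 15.97% and 7.05%. The median number of CpG dinucleotides was 12 in the Hox windows, with a range from 2 to 35, and 6 over all genes.

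The genes of paralog groups 1 to 3 act in the hindbrain, pharyngeal arches and neck, and 2 of 7 were detected on both arrays. Hoxa2, which sets the identity of the second pharyngeal arch, had a signal of 204.8 without Fgf2 and 298.9 with it. The difference was 0.998 on the log2 scale or 1.997-fold, the greatest among Hox genes detected on both arrays, and the gene's other probe went the same way with signals of 185.8 and 239.7 and a difference of 0.77. In the authors' deposited log2 table the difference of Hoxa2 was 1.14, past 2-fold, and without background correction it was 0.54, below the 0.69 of Hoxa5.

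Hoxb2, a gene of hindbrain segments and their nerves, went the other way. Its signal was 562.1 without Fgf2 and 423.6 with it, a difference of -0.56, which was the lowest among Hox genes detected on both arrays. The paralogs Hoxa2 and Hoxb2 thus differed in opposite directions. Hoxb3, which acts in the hindbrain and in thyroid and thymus formation, was detected without Fgf2 by 1 of its 3 probes, at 177.9 against 159.9 with Fgf2, and its bound was at least 1.03-fold lower. This bound is close to no difference. Its other probes gave 144.8 and 137.9, and 129.0 and 137.5, and were detected on neither array. Hoxa3, Hoxb1, Hoxd1 and Hoxd3 were also below detection on both.

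Paralog groups 4 to 8 pattern the neck and chest, and 9 of their 15 genes were detected on both arrays, 8 higher with Fgf2 and 1 lower. Hoxa5, needed for lung and for the boundary between neck and chest vertebrae, had a signal of 1494 without Fgf2 and 2382 with it. Its difference of 0.74, or 1.67-fold, rested on signals far above the background on both arrays, and without background correction it was still 0.69. Hoxa7, a gene of the chest vertebrae, read 1217 and 1767, a difference of 0.58. Hoxa6, which lies between them, was below detection on both arrays at 126.6 and 143.5. Hoxa4, a gene of the neck vertebrae, read 149.9 without Fgf2, where it was not detected, and 183.9 with it, a bound of at least 1.21-fold higher.

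Hoxb6, a trunk gene of the Hoxb cluster, had signals of 217.2 and 300.8, which is 1.76-fold higher with Fgf2 or 0.82 on the log2 scale. Without background correction the difference of Hoxb6 was 0.45. Its neighbours Hoxb5 and Hoxb7 were higher as well. For Hoxb5, which is used in the neural crest of the gut, the signals were 308.3 and 401.9 and the difference 0.53, and for Hoxb7 they were 644.3 and 839.8 and the difference 0.44. Hoxb4, known for promoting the self-renewal of blood stem cells, was slightly lower with Fgf2, from 300.3 to 270.6, a difference of -0.27 that is near the SD between probes.

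In the order of the genes along the Hoxb cluster, then, the detected members from Hoxb2 to Hoxb4 were lower with Fgf2, those from Hoxb5 to Hoxb7 were higher, and Hoxb9 was lower again. The lower run rests mainly on Hoxb2, since the bound of Hoxb3 was close to no difference and Hoxb4 was near the SD between probes. Hoxb8, between Hoxb7 and Hoxb9, was below detection, with signals of 122.7 and 117.9 at the level of the background. The median over the 6 detected Hoxb genes was 0.09, with 3 higher and 3 lower.

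Hoxd4, a neck gene, had signals of 229.1 and 300.0, a difference of 0.66 or 1.58-fold, and of 0.37 without background correction. Hoxd8, a trunk gene, read 596.2 and 671.0, a difference of 0.19, within the spread between probes. Hoxc6, a gene of the chest and of forelimb motor neurons, read 4385 without Fgf2 and 5324 with it, a difference of 0.28. Both signals were far above the background, and the value ran from 0.25 with cyclic loess to 0.32 with median scaling. Hoxc8 was below detection at 131.2 and 161.1, although Hoxc6 and Hoxc9 on either side of it were detected. Hoxc4 and Hoxc5 were below detection too.

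**Figure D3:**
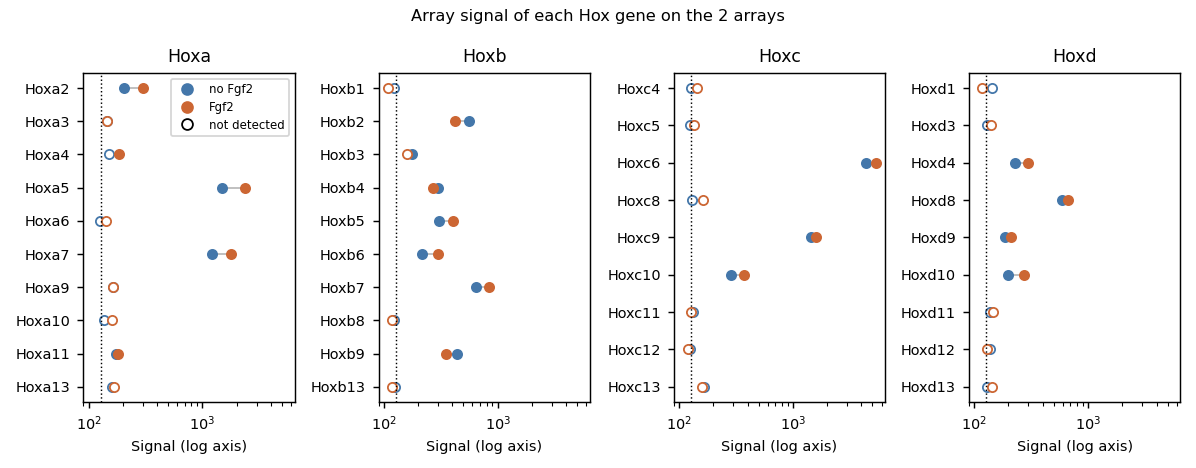
Each row gives the array signal of a Hox gene, taken from its brightest probe, without Fgf2 (blue) and with Fgf2 (orange), on a log axis and with background included. Open circles were not detected at a detection p below 0.01, and the dotted line is the estimated background. The points of one gene are comparable with each other, and levels of different genes are not.

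Paralog groups 9 and 10 pattern the lower chest and loins and the upper parts of the limbs. Of their 7 genes 5 were detected on both arrays, 4 higher with Fgf2 and 1 lower. Hoxd10, which acts in lumbar motor neurons and the hindlimb, had signals of 199.2 and 273.8, a difference of 0.88 or 1.84-fold. Hoxd10 and Hoxa2 both had dim signals without Fgf2, with a detection p of 0.0013 each. Without background correction the difference of Hoxd10 was 0.45, less than those of Hoxa5, Hoxa7 and Hoxa2, and in the authors' deposited table it was 1.03.

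Hoxc10, a marker of the lumbar region and hindlimb, was read by 2 probes that were both detected on both arrays. One gave 287.4 and 376.4, a difference of 0.57, and the other 268.4 and 299.0, a difference of 0.25. Both were higher with Fgf2, and their gap shows how far probes of one Hox gene can disagree in size. Hoxd9, which with its paralogs shapes the upper limb bones, read 187.3 and 211.1, a difference of 0.37. Hoxc9, which marks chest motor neurons, read 1447 and 1590, a difference of 0.17. Hoxb9, a gene of the chest and ribs, was the exception of this group with 441.8 without Fgf2 and 353.2 with it, a difference of -0.50 or 1.41-fold lower. The 3 probes of Hoxa9 were detected on neither array and gave differences of 0.00, 0.49 and -0.40, so they point in no direction. Hoxa10 was below detection with both of its probes.

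Paralog groups 11 to 13 mark the tail end of the trunk, the far parts of the limbs and the genital tract, and 1 of 9 genes was detected. That gene was Hoxa11, which shapes the forearm and lower leg and acts in the uterus, with signals of 174.6 and 181.2 and a difference of 0.14. It was barely above background, at detection p-values of 0.0088 and 0.0063. None of the 4 genes of group 13, which act in fingers, toes, gut end and genitalia, was detected, and neither were Hoxc12 and Hoxd12. Hoxa13 came nearest with Fgf2, with a detection p of 0.0351 without Fgf2 and 0.0163 with it by its brightest probe. Hoxc13 came nearest without Fgf2, with a detection p of 0.0175 there and 0.0376 with Fgf2. The 27 probes of the 19 undetected genes had signals from 109.3 to 168.5, with medians of 131.2 without Fgf2 and 141.7 with it. For these genes the arrays do not show absence, but a level that could not be told from background.

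At a detection p below 0.01 the highest paralog detected was 11 in the Hoxa cluster, 9 in Hoxb, and 10 in Hoxc and Hoxd, on each array. These limits depend on the threshold. Below 0.001 the last detected Hoxd gene was Hoxd8 without Fgf2 and Hoxd10 with it, and the last Hoxa gene was Hoxa7 on each array. Below 0.05 Hoxa13 and Hoxc13 were detected on both arrays. The median difference was 0.66 over 4 Hoxa genes, 0.28 over 3 Hoxc genes and 0.52 over 4 Hoxd genes. In the Hoxa cluster the differences ran 0.998, 0.74, 0.58 and 0.14 from Hoxa2 to Hoxa11, and without background correction they were 0.54, 0.69, 0.54 and 0.05, so a decline from Hoxa2 on was not kept. In the Hoxd cluster they were 0.66, 0.19, 0.37 and 0.88 from Hoxd4 to Hoxd10.

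**Figure D4:**
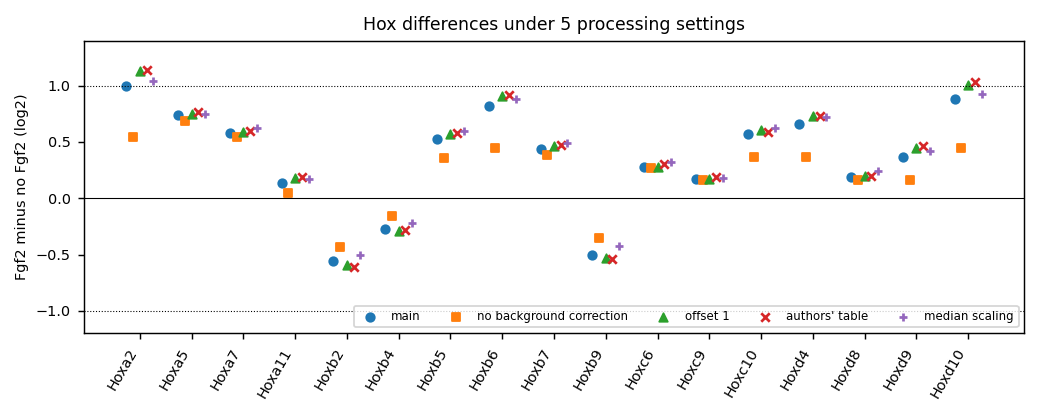
The Fgf2 minus no Fgf2 difference (log2) of each Hox gene detected on both arrays is shown under 5 processing settings, with dotted lines at 2-fold. No gene changes side, dim genes such as Hoxa2, Hoxb6 and Hoxd10 have smaller differences without background correction, and Hoxa2 and Hoxd10 pass 2-fold in the authors' table.

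Hox proteins bind DNA together with homeodomain partners of the TALE class, the Pbx, Meis and Pknox proteins. Of 7 such genes measured, 5 were detected on both arrays, 4 higher with Fgf2 and 1 lower, with a median of 0.37 and 0 at least 2-fold apart. Pbx2 had signals of 190.8 and 241.4, a difference of 0.69, while another probe detected on both arrays differed by 0.14. Without background correction the difference of Pbx2 was 0.32. Meis1 read 1459 and 1841, a difference of 0.37. Pbx3 differed by 0.38 by its brightest probe and by 0.04 by another. Pknox1 differed by -0.31 by one probe and by 0.24 by the other, so its direction is not settled. Pknox2 was detected without Fgf2 alone, at least 1.73-fold lower with it, by 1 of 5 probes, and Meis3 with Fgf2 alone, at least 1.23-fold higher. These bounds, like the others given here, hold on the background-corrected scale. Without background correction the log2 differences were -0.53 for Pknox2 and 0.20 for Meis3, which is less, and the mean of the Pknox2 probes gave -0.36.

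Polycomb proteins keep Hox genes silent through methylation of histone H3 at lysine K27, and trithorax proteins and K27 demethylases oppose them. Of 18 such genes on the array 13 were detected on both, 7 higher and 6 lower with Fgf2, with a median of 0.05. The 1 gene past 2-fold was Kdm6b, a K27 demethylase, which read 1014 without Fgf2 and 538.2 with it, a difference of -1.10 or 2.15-fold lower. Its other probe went the same way, from 210.7 to 171.2, but was not detected with Fgf2 (detection p of 0.015). The related demethylase gene Kdm6a differed by -0.36. Phc2 and Cbx8, of Polycomb complex 1, differed by 0.45 and 0.26.

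Retinoic acid and the Cdx factors set Hox boundaries in the embryo. Of 15 measured genes of this pathway, 5 were detected on both arrays, 3 higher and 2 lower, with a median of 0.50. Rarb, a retinoic acid receptor gene, had signals of 179.9 and 387.8, a difference of 2.01 or 4.03-fold higher with Fgf2, and another probe detected on both arrays gave 1.29. Without background correction the difference of Rarb was 1.09. Crabp1, which binds retinoic acid in the cell, read 3407 and 7867, a difference of 1.23 or 2.35-fold. Rarg was higher by 0.50 and Crabp2 lower, with a difference of -0.35. Aldh1a2, the enzyme that makes retinoic acid in the embryo, was detected without Fgf2 alone, at least 1.11-fold lower with it, and Cdx1, Cdx2 and Cdx4 were below detection on both arrays.

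Of 43 other measured regulators of position and limb growth, 12 were detected on both arrays, 6 higher and 6 lower, with a median of -0.01. Foxd1, a forkhead factor gene of kidney and face mesenchyme, was 2.15-fold lower with Fgf2, from 994.1 to 528.0. Gsc, a homeobox gene of head and rib formation, was 1.63-fold higher, from 244.8 to 335.4. On the log2 scale the difference of Gsc was 0.71, and 0.43 without background correction. Shox2, of the upper limb, and Tbx3, of the limb edge, differed by -0.58 and 0.39. For Shox2 the difference was -0.28 without background correction and -0.21 with the mean of its probes. Foxf2 was detected with Fgf2 alone, at least 1.16-fold higher, and Msx2 without it alone, at least 1.02-fold lower.

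To see whether the genes next to the clusters differed as the Hox genes did, the 3 nearest measured protein-coding genes on each side of each cluster were taken by their order in RefSeq, a choice made after the Hox values were seen. Of these 24 genes 15 were detected on both arrays, 12 higher with Fgf2 and 3 lower, with a median of 0.14 and a range from -0.55 to 0.67. Among Hox genes 14 of 17 were higher, with a median of 0.44. Of all genes detected on both arrays 53.9% were higher, with a median of 0.03. Snx11, beside the Hoxb cluster, was the lowest, from 1165 to 837.5. The highest was Cbx3, beside the Hoxa cluster, from 174.3 to 212.0, which was near background. Evx1 and Evx2, homeobox genes at the 5′ ends of the Hoxa and Hoxd clusters, were below detection on both arrays.

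**Figure D5:**
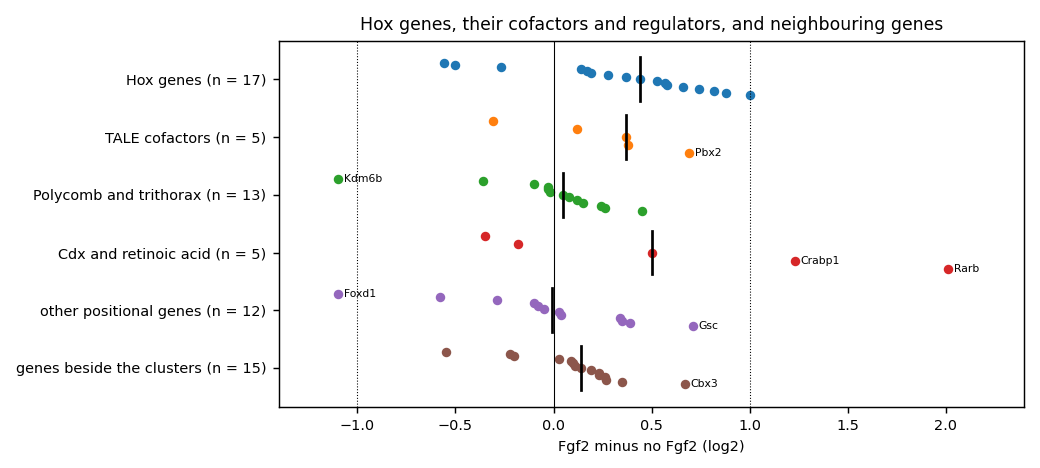
Each point is a gene detected on both arrays, placed by its Fgf2 minus no Fgf2 difference (log2), for the Hox genes, 4 lists of related genes and the genes beside the clusters, with a bar at each median. Genes outside the Hox family that differ by 0.6 or more are named, among them Rarb and Crabp1 on the higher side and Kdm6b and Foxd1 on the lower side.

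The fibroblast label was checked with 11 markers, which were all detected in both cultures, 5 higher and 6 lower with Fgf2, and their summed signal was 53290 without Fgf2 and 48310 with it. That sum hides large differences, since 5 of the 11 were past 2-fold. Col1a1 and Col1a2, of collagen I, differed by -2.53 and -1.85 on the log2 scale, and the growth factor receptor gene Pdgfrb by -1.80. Lum, of the collagen matrix, was higher with Fgf2 by 2.39 and Pdgfra by 1.36. All 5 were greater in size than any Hox difference, and their part in the Hox differences was not tested. Markers of other cell types that a culture of embryo cells could hold were examined beside the Hox values. Summed signals with background included were 1112 and 1285 for 6 macrophage markers, 974.0 and 1037 for 7 endothelial, 1765 and 1551 for 7 epithelial, 1429 and 1527 for 7 neural, 1408 and 949.2 for 5 skeletal muscle and 520.7 and 516.3 for 4 cardiac markers, each without and with Fgf2. Detected on both arrays were 2 macrophage, 0 endothelial, 3 epithelial, 2 neural, 1 skeletal muscle and 0 cardiac markers. The endothelial marker Esam was detected with Fgf2 alone, at 186.5 against 168.3 without it. The epithelial marker Krt14 was detected without Fgf2 alone, at 482.8 against 157.9, while Krt19 was higher with Fgf2, with a difference of 1.32 on the log2 scale. The macrophage marker Cd14 was higher with Fgf2 by 1.58, and Des, of muscle, lower, with a difference of -1.10. Ptprc, Adgre1, Cdh1, Myod1 and Myog, markers of blood cells, macrophages, epithelium and muscle, were below detection on both arrays. Also detected on both arrays were Lyz2 (394.5 and 437.2), Krt8 (387.3 and 266.5) and Krt18 (296.3 and 353.8). So were the neural markers Nes (495.6 and 600.0) and Map2 (256.0 and 247.9). Absence of such cells is therefore not shown. The part of such cells in the Hox differences was not tested.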

How the data were processed

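Total RNA from the 2 cultures, 300 ng each per the labels' protocols, was read on 1-colour Illumina arrays. The signals are intensity values deposited by the authors on a linear scale, with no normalization between arrays that the values show, and each has a detection p-value, per the file headers. The second deposited table holds log2 values by the authors, with a median of 4.30 on each array, ranks that match the array's own signals (Spearman 1.0000 on each array, across probes), and sorted values that differ between arrays by at most 0.00067. Its scale, direction and lack of centring by gene follow from that comparison, and how background was treated in it stays unknown. The submitters' processing notes name the tools BeadStudio 3.2, lumi and RMA without saying what each did.

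In limma 3.58.1 (R 4.3.3), the background (mean 127.9 and 128.4, SD 14.5 on both arrays) was inferred from the detection p-values and removed by normexp. An offset of 16 was added, the arrays were quantile normalized, and log2 was taken last. Medians of the raw signals were 149.3 without Fgf2 and 148.5 with it, and 41.1% and 39.9% of 25697 probes were detected. Probes were named from the platform annotation, and 23962 of 23978 named probes were updated through RefSeq; 1719 had no name. Where only 1 array detected a gene, the fold is a bound, taken against the lowest level among detected probes on the other array (5.87 without Fgf2, 5.99 with it) or against the measured level of that gene, whichever was higher. No coordinates of the probes are given, since no build is named for the array; promoter coordinates are those of the RefSeq table. Precision is limited by the number of arrays. The steps were tested on simulated arrays, in which changes were added only to probes well above background. That test does not cover dim genes such as Hoxa2, Hoxb6, Hoxd4 and Hoxd10. Python 3.11.15, pandas 2.3.3, numpy 2.4.6 and matplotlib 3.10.9 were used.

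The members and lists were chosen with earlier results of these data known. Values are given for every Hox gene detected on at least one array or whose probes disagree in detection, and from each other list for up to 4 genes detected on both arrays with the greatest difference and up to 2 with the greatest bound; other genes were named after their values were seen. Alternatives were other detection thresholds and filters, fold thresholds, background corrections and offsets, median scaling, cyclic loess, the authors' log2 table and the mean of a gene's probes.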

Additional observations from a re-analysis of the deposited data

How the results depend on the processing

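The median Hox difference ran from 0.25 with no detection filter to 0.49 with median scaling, against a main value of 0.44, and was 0.28 at a detection p below 0.05 (21 genes, 15 higher and 6 lower). The median of all genes moved between 0.00 (cyclic loess) and 0.08 (median scaling). The 17 Hox genes split into 14 higher and 3 lower under each of the 7 other corrections, scalings and probe rules tried. The count at least 2-fold higher, 0 in the main setting, was 2 with an offset of 1, 2 in the authors' log2 table, 1 with median scaling and 5 at a 1.5-fold threshold; the genes that passed were Hoxa2 and Hoxd10 (1.13 and 1.01 with the offset of 1), and Hoxa2 alone under median scaling (1.04). The count at least 2-fold lower was 0 under every alternative tried. Under alternatives chosen after seeing the data, the count at least 1.5-fold higher (5) was 1 without background correction. It was 4 with an offset of 50, 7 with an offset of 1 and in the authors' log2 table, and 8 with median scaling. The shares of all genes were 3.16% without background correction, 4.9% with an offset of 50 and 8.16% with an offset of 1. They were 8.61% in the authors' log2 table and 8.24% with median scaling, against 6.75% in the main setting. The count at least 1.5-fold lower (0) was 1 with an offset of 1 and 1 in the authors' log2 table. Shares of all genes past 2-fold, and past 1.5-fold on the lower side, are not given for these alternatives. Hox genes detected on both arrays numbered 21 at a detection p below 0.05, which adds Hoxa9, Hoxa13, Hoxb3 and Hoxc13. Below 0.001 they numbered 13, which drops Hoxa2, Hoxa11, Hoxd9 and Hoxd10. There the alternative of a detection p of 0 is no further check, since no detection p lies between. Of 133 values of single Hox genes under other settings, 123 stayed within the spread between probes, 10 moved by more and 0 changed sign. Among the other lists, the median of positional genes became 0.05 under median scaling and that of Polycomb and trithorax genes -0.02 with the mean of probes, and the Hoxd median was 0.27 without background correction. The cause of these shifts was not tested. Array signal near background limits every statement on undetected genes and on Hoxa4, Hoxa11 and Hoxb3. It also limits the sizes of the differences of Hoxa2, Hoxb6, Hoxd4, Hoxd9 and Hoxd10, which were dim without Fgf2. No paired analysis was possible because each group has 1 array.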
